A study of Mus musculus with 16 samples.

Results

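Cpt1a encodes carnitine palmitoyltransferase 1A, and its RNA was described here as a target crosslinked to PGC-1α in mouse hepatocytes. The gene (ENSMUSG00000024900.5, GRCm38/mm10 chr19:3322334-3385733, plus strand) was chosen by its measured values: earlier results of these libraries had shown more enriched peaks on it with glucagon than without. Its members are the clusters whose midpoint lies inside the gene on its own strand, 612 of 1331383 clusters over 8 immunoprecipitated (IP) libraries, and the peaks of the authors' reproducible lists placed by the same rule, 36 of 8478. It was 1 of 12813 genes with a cluster. Since the difference between treatments chose the gene, that difference is described below and was not tested.

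CPT1A sits in the outer mitochondrial membrane of the liver and joins long-chain fatty acids to carnitine, the step at which they are committed to oxidation. Malonyl-CoA, made by acetyl-CoA carboxylase when fuel is plentiful, inhibits the enzyme, and fasting relieves that inhibition. Transcription of Cpt1a is raised in fasting and by glucagon through cyclic AMP signalling, PPARα and the coactivator PGC-1α, which also carries RNA-binding motifs.

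Freshly isolated hepatocytes from C57BL/6J mice spent a night in starvation medium, a step that the labels' protocol gives for the cells in general, and were then treated with 200 nM glucagon for 3 h or were labelled as untreated controls. RNA crosslinked to endogenous PGC-1α with ultraviolet light at 254 nm was sequenced by seCLIP, a single-end form of eCLIP, which sets the reads of an antibody pulldown against a matched input. The 4 groups were glucagon lower band, control lower band, glucagon upper band and control upper band, with 2 IP libraries each, and the series holds 16 libraries with the inputs. The labels do not say that replicates came from separate cultures or animals, so each p-value reflects just the spread among these libraries and that spread may be technical.

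Each cluster has the authors' log2 fold of IP over input and −log10 p. A cluster with both values at 3 or more is called an enriched peak. The libraries held 26279 to 260814 clusters, and glucagon lower band replicate 1 stood apart with 26279, against 97629 or more in the other libraries. Read depth is unknown. Of the hepatocyte markers, 7 of 8 had clusters, 3362 in all, and transferrin (Tf) had none. Of 5 markers each, Kupffer cells had 1 with 44 clusters, endothelial cells 1 with 1 cluster, stellate cells 1 with 6 clusters and cholangiocytes 2 with 23 clusters.

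Binding to Cpt1a lay almost wholly in its first intron. The principal transcript has 19 exons, and intron 1 (chr19:3323375-3349188) runs for 25814 nt between the noncoding exon 1 and exon 2, where the start codon lies. Intron 1 held 505 of the 612 clusters and 118 of the 119 enriched peaks, while it makes up 44.4% of the intron length of the gene. The other 17 introns held 24 clusters in 9 introns, and the exons held 83 clusters. No cluster lay on the opposite strand within the gene.

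**Figure D1:**
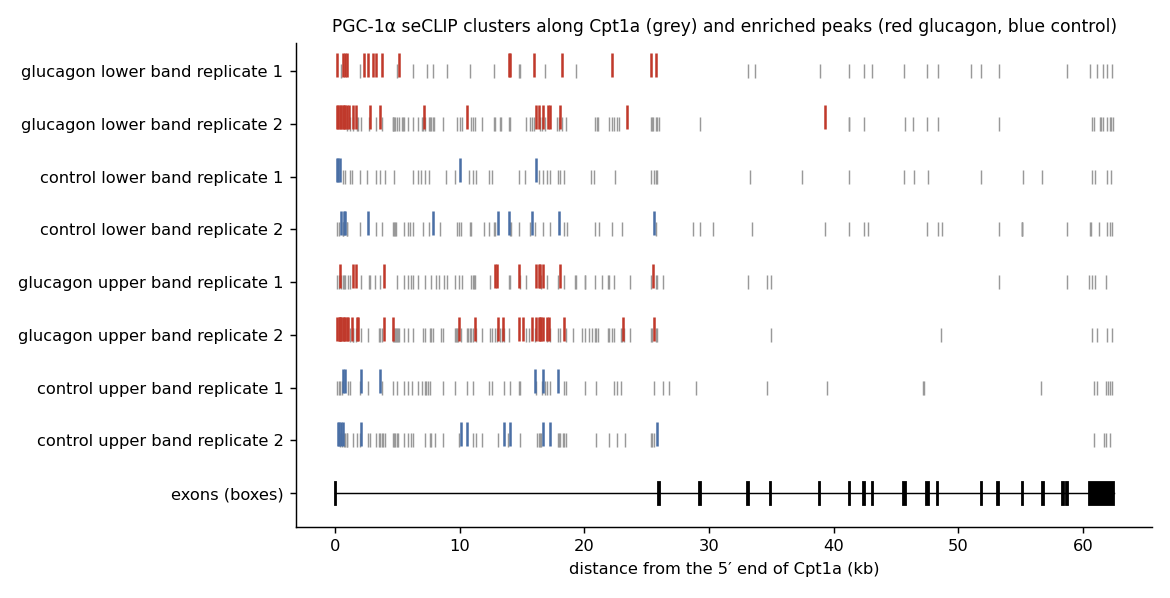
Positions of all Cpt1a clusters in the 8 IP libraries against distance from the 5′ end of the gene in kb, with exons as boxes. Grey ticks are clusters and taller coloured ticks enriched peaks (red glucagon, blue control). Of 119 enriched peaks, 118 lie in intron 1, before the second box.

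The median log2 fold of the intron 1 clusters was 3.16, 2.62, 2.48 and 2.69 with glucagon (in the order lower 1, lower 2, upper 1 and upper 2, for band and replicate), and 2.56, 2.61, 2.16 and 2.63 in controls by the same order. On the exons it was 0.24, −0.77, −0.28 and −0.41 with glucagon and −0.27, −0.20, −0.36 and −0.40 in controls. Intron 1 therefore stood above input in every library, and the exons lay at or below input in all but glucagon lower band replicate 1. The median over all clusters of a library was also above input, at 0.91 to 1.62. The exonic clusters ranged from −1.50 to 1.23 in log2 fold, 57 of 83 were below 0, and their highest −log10 p was 1.17. Of them 42 lay in exon 19, the last exon, which ends in the 3′ UTR, and none in exon 1.

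Within each library, the median log2 fold of intronic clusters exceeded that of clusters in an exon of any Cpt1a transcript by 2.66 ± 0.60 on average (SD over 8 libraries). It was higher in 8 of 8 libraries (exact two-sided sign flips, p = 0.00781, the smallest this test can give). The smallest difference was 1.33, in control upper band replicate 1, and the largest 3.36, in glucagon lower band replicate 2. Clusters before the midpoint of the gene exceeded those after it by 2.66 ± 0.64 (8 of 8 libraries, exact sign flips, p = 0.00781). These 2 splits overlap heavily, because intron 1 lies before the midpoint and most exonic clusters after it, so these are not independent results. The gene was chosen by its enriched peaks, which need a high fold and lay almost wholly in intron 1. Both differences therefore lean that way by construction, and their p-values are no independent support. The same differences were not computed for other genes. With the bands averaged first, 4 units remained and neither difference could pass (exact p = 0.125, the smallest possible).

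**Figure D2:**
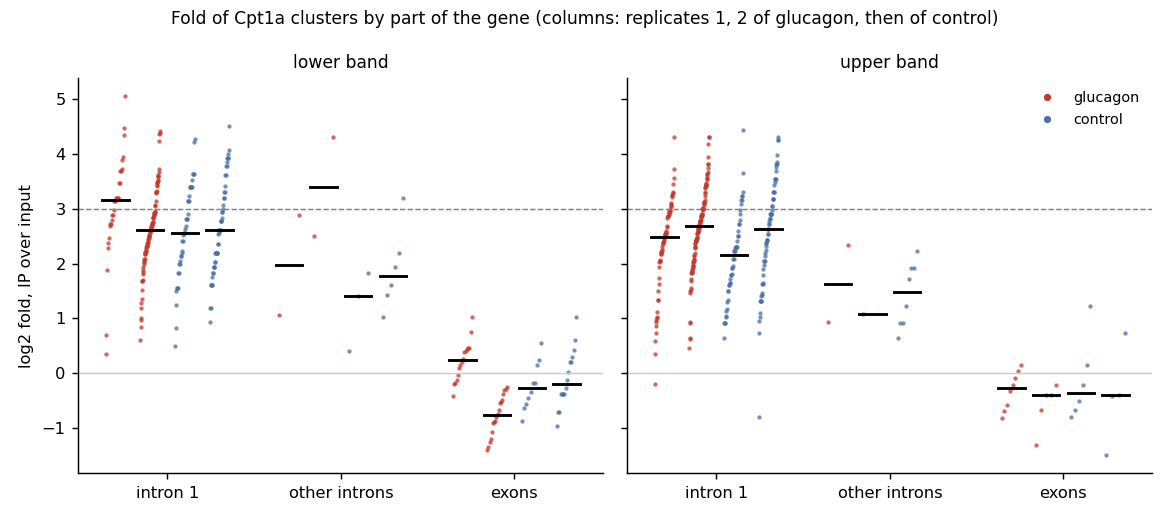
Log2 fold of IP over input of each Cpt1a cluster in intron 1, the other introns and the exons, by band, with 1 column of points per library (glucagon red, control blue) and black lines at library medians. Intron 1 medians lie between 2.16 and 3.16 and exon medians between −0.77 and 0.24; the dashed line marks a log2 fold of 3.

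Sequence could be read at those Cpt1a clusters that an annotated transcript covers. They are shown to place letters beside a site with an enriched peak in 1 library, an unenriched intronic site and an unenriched exonic site; capitals mark the bases shared by all clusters at each site, and all are on the plus strand of GRCm38 from GENCODE transcripts.
Intron 1 site, chr19:3341630-3341659: gattgagcTCAGATCTTCATTCCGctcagc
Intron 2 site, chr19:3349561-3349590: gacacaGTCTCTCTGCATCCCTCactctcc
Exon 11 site, chr19:3370791-3370820: cttCGTGACGTTGGACGAATCGGAACAggg

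The intron 1 site lies in a first exon annotated for the alternative transcript Cpt1a-207, 246 nt long and beginning 18253 nt into intron 1, which is intronic in the principal transcript. Its 5 clusters had log2 folds of 2.21 in glucagon upper band replicate 1 and 3.41 in replicate 2, against 2.20 in control lower band replicate 2, 2.23 in control upper band replicate 1 and 1.11 in control upper band replicate 2. Only the cluster in glucagon upper band replicate 2 was an enriched peak, with a −log10 p of 20.2. That alternative exon held 11 clusters over 7 libraries, and the enriched peak was the only one among them.

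The intron 2 site, which lies in the retained-intron transcript Cpt1a-202, had a log2 fold of 2.34 in glucagon upper band replicate 1 and 1.23 in control upper band replicate 1. The exon 11 site, in coding sequence, had log2 folds of 0.09 and −0.26 in the 2 glucagon lower band libraries, and 0.56 and 0.20 in the 2 control lower band libraries. No cluster was found in exon 11 of the upper band libraries. The sequence of the rest of intron 1, which holds the other enriched peaks of that intron, was not used here.

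Within intron 1, counted in 5-kb steps, the enriched peaks were most numerous in the first 5 kb and next from 15 to 20 kb. In successive 5-kb steps from its start, intron 1 held 57, 5, 16, 31 and 3 enriched peaks. The last stretch before exon 2, which runs only from 25 to 25.814 kb, held 6. The clusters in the same steps numbered 159, 92, 86, 96, 45 and 27. The share of clusters that were enriched was thus 35.8% in the first step and 32.3% in the fourth, with 5.43% in the second and 6.67% in the fifth. It was 22.2% in the last stretch, which is much shorter than a step, so its counts are not comparable with theirs. The earliest cluster began 39 nt after exon 1, and the first 1500 nt, 5.81% of intron 1, held 39 of the 118 enriched peaks. Of those 39, 27 were in glucagon libraries and 12 in controls.

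With libraries summed, the glucagon libraries held 41 enriched peaks in the first step, 3 in the second, 10 in the third, 23 in the fourth, 3 in the fifth and 4 in the last stretch. The control libraries held 16, 2, 6, 8, 0 and 2 in the same steps. The first step thus had most in both sums, though glucagon upper band replicate 1 had 4 in it and 5 in the fourth. The third and the fourth steps were close to each other in controls. Control lower band replicate 2 had 2 in each of those steps, and control upper band replicate 2 had 4 in the third and 2 in the fourth. Neighbouring clusters of a library lie on the same RNA and are not independent. Enriched peaks that touched within a library, once merged, numbered 17, 20, 13 and 28 with glucagon (lower 1, lower 2, upper 1, upper 2) and 5, 9, 7 and 12 in the controls.

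The 1 enriched peak outside intron 1 lay in intron 6, at chr19:3362602-3362640, in glucagon lower band replicate 2, with a log2 fold of 4.30 and a −log10 p of 5.02. Control lower band replicate 2 had an overlapping cluster with a log2 fold of 1.61, and no other library had one. In no list was a Cpt1a peak outside intron 1.

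A high first-intron share of enriched peaks was not particular to Cpt1a. Among protein-coding genes with at least 2 introns in the transcript with most exonic bases, 57.9% of all enriched peaks lay in the first intron. Of 357 such genes with 20 or more enriched peaks, the median share was 83.3%, and 110 had a share at or above the 99.2% of Cpt1a. For clusters at any fold, 20.1% to 29.1% by library lay in a first intron, against 62.5% to 94.6% on Cpt1a.

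Cpt1a carried 17 and 23 enriched peaks in the glucagon lower band libraries (replicates 1 and 2), against 5 and 10 in the control lower band libraries. In the upper band it carried 13 and 32 with glucagon, against 7 and 12 in controls. The glucagon libraries were above the controls in both bands with no overlap, though glucagon upper band replicate 1 exceeded control upper band replicate 2 by only 1 peak. The means were 20 ± 4.2 with glucagon and 7.5 ± 3.5 in controls in the lower band, and 22.5 ± 13.4 with glucagon and 9.5 ± 3.5 in controls in the upper band (SD, n = 2 each).

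As background, both glucagon libraries lay above both controls in each band for 0.335% of the 2982 genes with an enriched peak by number, and for 1.01% by number per 1000 enriched peaks. Cpt1a was among both sets, and this separation helped to choose it. Scaled to the 979 to 7603 enriched peaks of each library, Cpt1a took 17.4 and 8.17 per 1000 in the glucagon lower band, against 1.22 and 1.76 per 1000 in the control lower band. In the upper band it took 3.95 and 4.21 per 1000 with glucagon and 1.42 and 1.84 per 1000 in controls. The highest of these belongs to glucagon lower band replicate 1, the smallest library. Without it the difference between glucagon and control, averaged over bands, was 4.57 per 1000, against 6.87 per 1000 with it.

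By number of enriched peaks, Cpt1a ranked 4 of 485 and 13 of 748 genes in the glucagon lower band libraries, against 162 of 1090 and 112 of 1429 in the control lower band. It ranked 32 of 1139 and 24 of 1773 in the glucagon upper band, and 137 of 1275 and 110 of 1501 in the control upper band. In these bulk libraries, more cells with Cpt1a RNA, more of that RNA per cell and more protein attached to each RNA cannot be told apart.

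As plain numbers, clusters at any fold showed a smaller contrast than enriched peaks. Cpt1a had 48 and 109 clusters in the glucagon lower band, against 56 and 75 in the control lower band, and 77 and 112 in the glucagon upper band, against 64 and 71 in the control upper band. The treatments overlapped in the lower band and did not in the upper band. Per 1000 clusters of the library, Cpt1a took 1.83, 0.580, 0.789 and 0.539 with glucagon (lower 1, lower 2, upper 1, upper 2) and 0.422, 0.421, 0.267 and 0.272 in the controls. On that scale glucagon was above control in both bands, with a ratio of means of 2.85 in the lower and 2.46 in the upper band, against 8.59 and 2.50 for enriched peaks per 1000. Both bands were so ordered for 497 of 12813 genes (3.88%).

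The share of Cpt1a clusters that were enriched was 35.4% and 21.1% in the glucagon lower band, against 3.73% and 1.50% of all clusters of those libraries. In the control lower band it was 8.93% and 13.3%, against 3.10% and 3.19%. For the upper band with glucagon it was 16.9% and 28.6%, against 3.37% and 3.66%, and for the control upper band 10.9% and 16.9%, against 2.05% and 2.50%. Every library thus had a higher share on Cpt1a than over all clusters, and the treatments overlapped in the upper band.

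**Figure D3:**
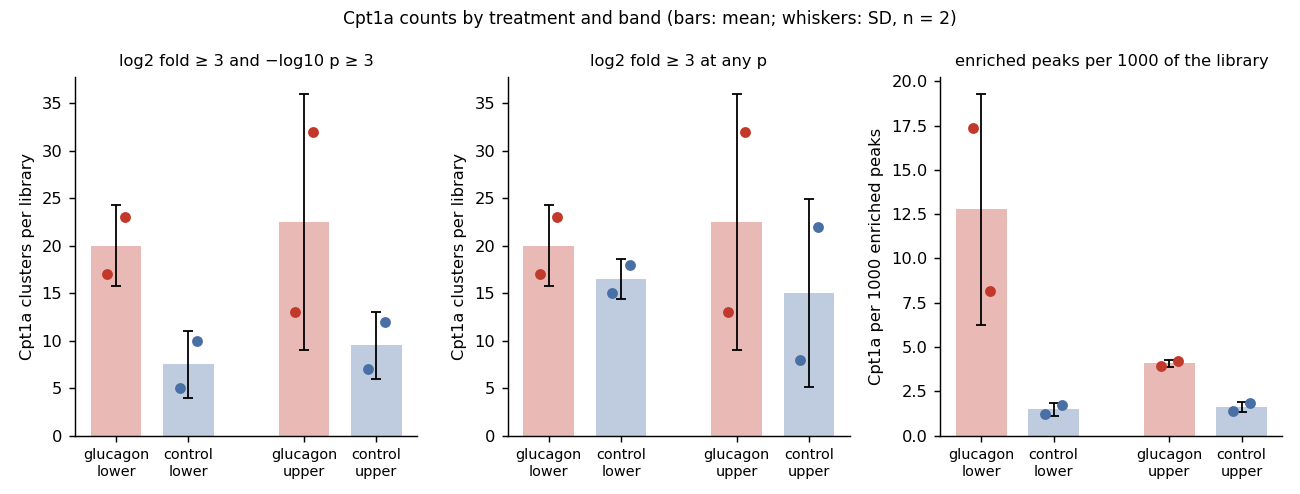
Cpt1a clusters per library in glucagon (red) and control (blue), by band; points are libraries, bars means and whiskers SD (n = 2). Left, with log2 fold and −log10 p of 3 or more; middle, with a log2 fold of 3 or more at any p; right, enriched peaks per 1000 enriched peaks of the library. The groups separate on the left and right, and overlap in the middle.

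The fold and the p-value contributed unequally to this contrast. At a log2 fold of 3 or more and any p, an alternative chosen after seeing the data, Cpt1a had 17 and 23 clusters in the glucagon lower band, against 15 and 18 in the control lower band. In the upper band it had 13 and 32 with glucagon, against 8 and 22 in controls. As plain numbers the treatments overlapped in both bands, with 85 such clusters with glucagon and 63 in controls. All 85 with glucagon also reached a −log10 p of 3, and 29 of the 63 in controls did not. Those 29 were split as 10 and 8 between the lower band replicates and 1 and 10 between the upper band replicates. Per 1000 clusters of the library with that fold at any p, Cpt1a took 2.95 and 3.88 in the glucagon lower band. In the control lower band it took 1.38 and 1.56. For the upper band it took 1.11 and 2.08 with glucagon, against 0.906 and 2.09 in controls. On that scale the treatments were apart in the lower band and overlapped in the upper.

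Over all genes the p-value did not favour the glucagon libraries in this way. Of all clusters with a log2 fold of 3 or more, 17.0% and 47.5% reached that p in the glucagon lower band, against 37.8% and 49.5% in the control lower band. In the upper band 28.1% and 49.4% reached it with glucagon, and 55.8% and 62.1% in controls. On Cpt1a the same share was 100% in each glucagon library, and 33.3%, 55.6%, 87.5% and 54.5% in the controls (lower 1, lower 2, upper 1, upper 2).

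In intron 1 the median −log10 p was 6.73 over 292 glucagon clusters and 1.97 over 213 control clusters, while the median log2 fold was 2.65 with glucagon and 2.49 in controls. Of these clusters, 250 with glucagon and 56 in controls reached a −log10 p of 3 at any fold. Clusters of 1 library with exactly the same fold and p as another intron 1 cluster made up 33.3%, 13.5%, 11.9% and 3.77% with glucagon (lower 1, lower 2, upper 1, upper 2), and 55.8%, 56.6%, 40.0% and 40.3% in the controls. The part of read number in the contrast was not tested, since read counts were not analysed here.

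The highest −log10 p on Cpt1a was 8.76, 24.4, 34.1 and 59.5 in the glucagon libraries, and 7.24, 6.47, 8.78 and 9.60 in the controls, in the same order. The highest log2 fold was 5.05, 4.43, 4.32 and 4.32 with glucagon and 4.28, 4.52, 4.43 and 4.31 in controls. Just inside the fold limit lay a cluster at 3.0005 and just outside it one at 2.9993, both in glucagon upper band replicate 2. Just under the p limit lay a cluster of control lower band replicate 2 with a −log10 p of 2.93 and a log2 fold of 3.07.

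**Figure D4:**
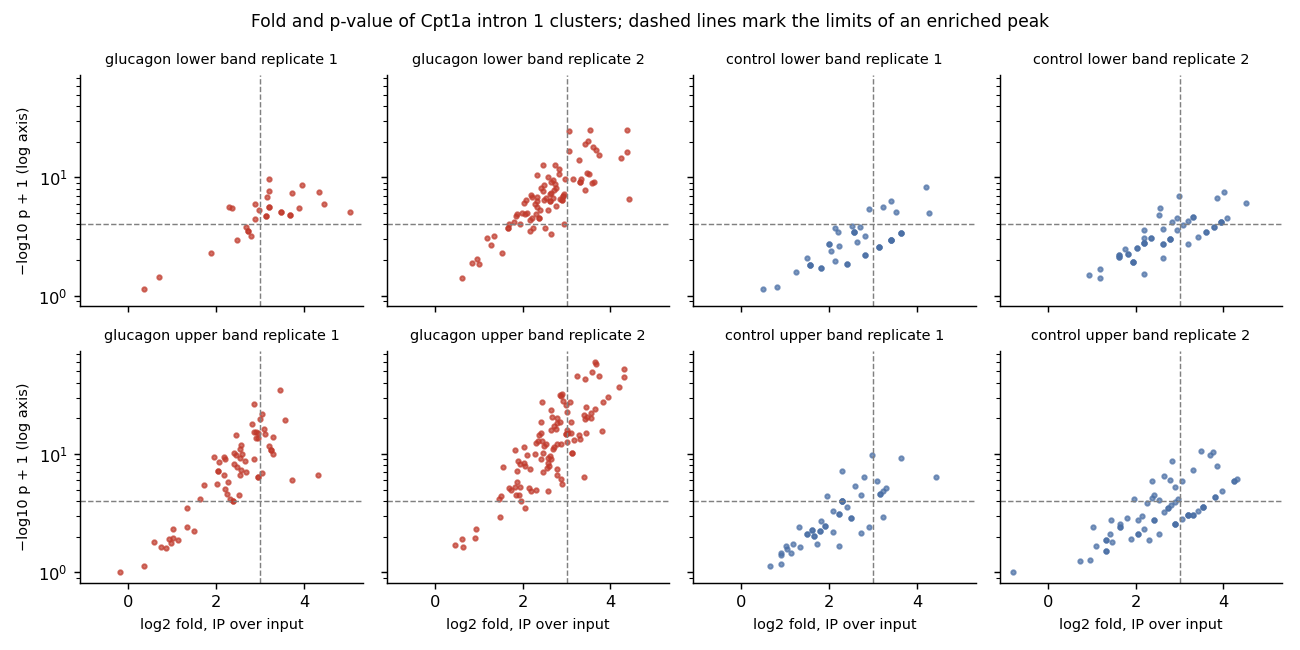
Log2 fold of IP over input against −log10 p plus 1 (log axis) of the intron 1 clusters of Cpt1a in each library, glucagon left (red) and control right (blue). Dashed lines mark the limits of an enriched peak. The lower right part of each panel, with a log2 fold of 3 or more and a −log10 p below 3, is empty in the 4 glucagon libraries and holds 10, 7, 1 and 10 clusters in the controls (lower 1, lower 2, upper 1, upper 2).

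The 2 bands were compared on the same counts, by a test that no outcome could pass in a design of this size. Averaged over treatments, the number of Cpt1a peaks per 1000 enriched peaks differed by −4.27, upper minus lower band (exact two-sided permutation of bands within treatments over 36 assignments, p = 0.278; the smallest p possible is 0.0556). Per 1000 clusters the upper minus lower difference was −0.35 (exact permutation p = 0.333), and the upper band was below the lower in 4 of 4 pairs of the same treatment and replicate number. In the median log2 fold of all Cpt1a clusters the difference was −0.03 (exact permutation p = 0.833). Without glucagon lower band replicate 1 these differences were −1.97, −0.03 and 0.04. All enriched peaks lay in intron 1 in 7 libraries and 95.7% in glucagon lower band replicate 2, which leaves no room for a difference between bands.

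The authors' reproducible lists, 1 per group, held Cpt1a peaks in each group. There were 8 of 413 peaks in the glucagon lower band, 2 of 2206 in the control lower band, 19 of 2167 in the glucagon upper band and 7 of 3692 in the control upper band. Cpt1a was among 86 genes present in all 4 lists, which are 7.11% of the 1210 genes with a listed peak. The rule behind the lists is not given in the sources used here, and by the same order only 3, 0, 10 and 3 of these peaks met an enriched peak in each of the 2 libraries of the listed group. Both peaks of the control lower band therefore rest on 1 library by that measure.

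Merged where they overlapped or touched, the 36 listed peaks made 22 sites. Of these, 14 were in glucagon lists alone, 2 in control lists alone and 6 in both. A listing in glucagon alone did not mean that controls lacked a cluster there: 21 of 22 sites had a cluster in at least 1 control library, and all 22 in at least 1 glucagon library. An enriched peak was present at 21 sites in at least 1 glucagon library and at 11 sites in at least 1 control library. No site was enriched in all 8 libraries.

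At the 19 sites with a cluster in 2 or more libraries of each treatment, the median log2 fold was 3.13 with glucagon and 2.90 in controls, and 13 of 19 were higher with glucagon. The sites were picked by fold in the listed group, mostly glucagon, so this comparison leans that way by construction.

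**Figure D5:**
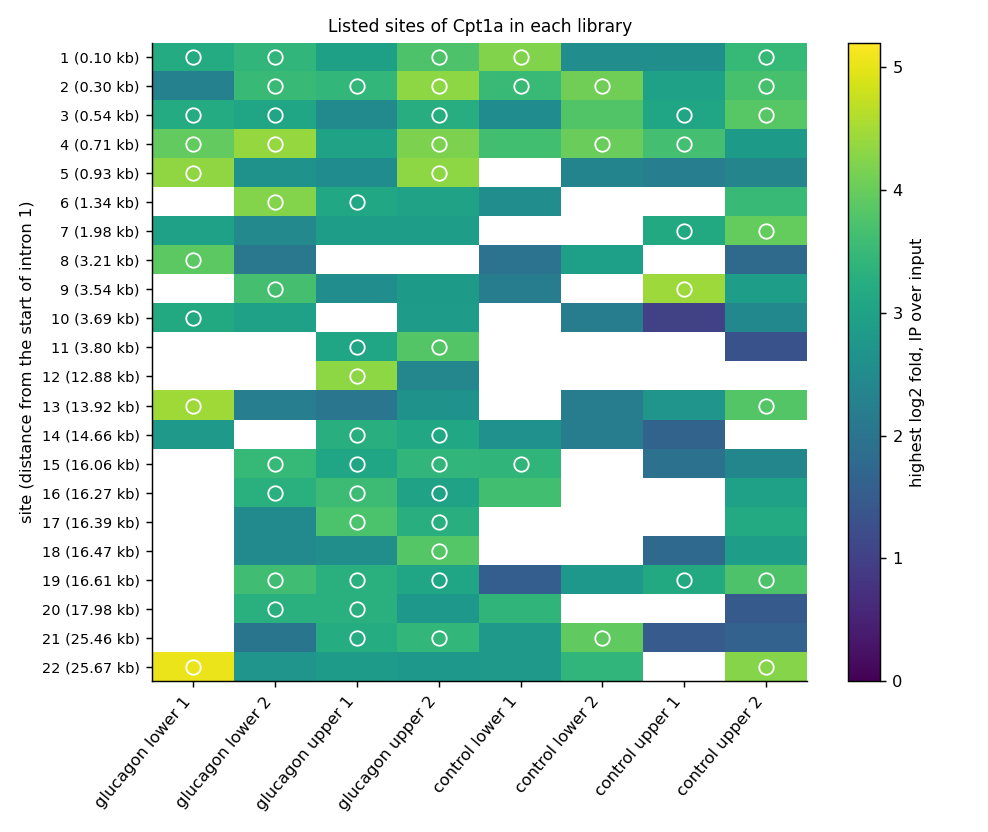
Highest log2 fold of IP over input at each of the 22 listed Cpt1a sites (rows, 5′ to 3′, with distance from the start of intron 1) in the 4 glucagon libraries (left) and the 4 control libraries (right). White cells have no cluster, and circles mark an enriched peak. Of the 22 sites, 21 have a cluster in some control library and 11 an enriched peak there.

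The site with most listed peaks was chr19:3323526-3323832, 305 nt into intron 1, with 6 listed peaks in 3 lists. Its log2 fold was 2.29 and 3.52 in the glucagon lower band, against 3.52 and 4.07 in the control lower band. In the upper band it was 3.44 and 4.32 with glucagon, against 2.99 and 3.70 in controls. The treatments overlapped in both bands at this site, and 3 glucagon and 3 control libraries had an enriched peak there.

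At the next site upstream, chr19:3323429-3323519, the log2 fold was 3.20 and 3.42 in the glucagon lower band, against 4.21 and 2.55 in the control lower band. It was 2.95 and 3.74 in the glucagon upper band, against 2.59 and 3.48 in the control upper band. All 8 libraries had a cluster, and the treatments again overlapped in both bands. The −log10 p at this site reached 45.0 with glucagon and 9.60 in controls.

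A site in the fourth step, chr19:3339386-3339489, had log2 folds of 3.49 in glucagon lower band replicate 2 and 3.05 and 3.43 in the glucagon upper band. In controls it had 3.40 in lower band replicate 1 and 1.95 and 2.38 in the upper band. The upper band treatments did not overlap here, and the lower band had 1 library of each treatment with a cluster. Sites with a cluster in every upper band library were apart in both directions. Besides this site, glucagon was higher without overlap at those 926 and 25461 nt into intron 1. Controls were higher without overlap at those 1983, 3542 and 13922 nt into it.

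The highest log2 fold on the gene, 5.05, belonged to a site 114 nt before exon 2 (chr19:3349013-3349074) in glucagon lower band replicate 1, with a −log10 p of 4.10. The same site had 2.71 in glucagon lower band replicate 2 and 2.86 and 2.78 in the glucagon upper band, against 2.82 and 3.42 in the control lower band. Control upper band replicate 2 had 4.25 there and replicate 1 no cluster. Its high value was thus that of 1 glucagon library and 1 control library.

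Among 56 genes of fatty acid oxidation and its control, chosen with earlier results known, 18 had an enriched peak in any library, and 8 a listed peak, with 53 of the 56 having a cluster. Over all genes with a cluster, 23.3% had an enriched peak and 9.44% a listed peak. Cpt1a supplied 119 of the 499 enriched peaks of these genes, and Rxra, the partner receptor of PPARα, supplied 325. Rxra had 1 and 41 enriched peaks in the glucagon lower band, against 40 and 40 in the control lower band, and 37 and 83 in the glucagon upper band, against 34 and 49 in the control upper band. Its treatments overlapped in both bands.

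The other members of the carnitine shuttle had almost none. Cpt1b, the muscle isoform, had 42 clusters, Cpt1c, the brain isoform, 5, and Cpt2, the enzyme of the inner membrane, 12, and none of these was enriched. Slc25a20, the carnitine-acylcarnitine carrier, had 1 enriched peak among 49 clusters, in glucagon lower band replicate 1, and Crat, Crot and Slc22a5 had none. Cpt1a was the only one of the 8 shuttle genes in a reproducible list.

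Of the 15 genes of mitochondrial β-oxidation, Eci1, an enoyl-CoA isomerase, had 1 enriched peak, and Abcd3, a transporter gene of the peroxisomal list, had 1. None of the 4 ketogenesis genes had one. Of the 9 genes of uptake and activation, the acyl-CoA synthetase genes Acsl1, Acsl3, Acsl4 and Acsl5 had 1, 1, 2 and 3, and Slc27a2, a very-long-chain acyl-CoA synthetase, had 2.

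Among the 14 genes of control, 8 had an enriched peak. Esrra, the nuclear receptor ERRα, had 18, of which 10 were in glucagon and 8 in control libraries, and Prkaa2, a catalytic subunit of AMP-activated kinase, had 10, of which 5 were in glucagon and 5 in control libraries. Lpin1, a phosphatidate phosphatase and partner of PGC-1α, had 4, Prkaa1 3 and Ppargc1b 3. Acacb, the acetyl-CoA carboxylase whose malonyl-CoA inhibits CPT1, had 2, both in glucagon upper band replicate 2. Ppara had 2, with 1 in each glucagon upper band library and none in the lower band.

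The 5 genes whose enriched peaks over the 8 libraries were most like those of Cpt1a were Gfra1, Foxp1, Rhobtb1, Cobll1 and Ppard, with Pearson r of 0.75, 0.69, 0.67, 0.67 and 0.62 on log2(number + 1). They were taken from 189 genes with a mean of 5 or more enriched peaks per library. The 8 points share library size, and 4 of them share each treatment. Gfra1, a co-receptor of GDNF, had 10, 29, 12 and 20 with glucagon (lower 1, lower 2, upper 1, upper 2) and 3, 0, 1 and 2 in the controls. The nearest genes on the strand of Cpt1a, Mrpl21 at 29496 nt upstream and Tesmin at 3123 nt downstream, had 20 and 19 clusters and no enriched peak.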

How the data were processed

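The submitters' processing notes name cutadapt, STAR and the mm10 build, without versions; the peak caller is not given in the sources used here. For each IP library the authors deposited a list of clusters with a −log10 p-value, capped at 400, and a log2 fold of IP over input, units read from the values since the files have no header. The lists were made per library, and 1 further deposited list per group holds reproducible peaks. Library groups came from the labels' source names.

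Clusters were placed by midpoint and strand in GENCODE M21 (GRCm38), with the principal transcript Cpt1a-201 for exon and intron numbers. Enriched peaks had a log2 fold and a −log10 p of at least 3. Bands were compared by exact two-sided permutation within treatments and parts of the gene by exact sign flips over libraries, both tested on simulated data. Treatments were described only. The gene, the gene lists, the tests and the rule for named genes were chosen with earlier results of these data known. That rule took Cpt1a, members of the fatty acid lists, the 5 genes most like Cpt1a in enriched peaks, the nearest gene on each side and Neat1, the RNA with most peaks, where a denominator turned on it. Not every gene that the rule takes is reported here. Read counts, and so depth and counting error, were not analysed here. Alternatives covered the fold and p limits, the denominators, the overlap rule, exon definitions, each library left out and a replicate block. Tools were bedtools 2.31.1, matplotlib 3.10.9, pandas 2.3.3, numpy 2.4.6 and Python 3.11.15.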

Additional observations from a re-analysis of the deposited data

How the results depend on the processing

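Of 130 alternatives over 11 results, 116 kept the direction and the side of the threshold or moved by less than the spread between replicates. Part of that count was fixed in advance, so it is no measure of robustness. No band comparison could pass its test in any setting, and the overlap rule changed no value. The glucagon minus control difference in enriched peaks per 1000, 6.87, was 2.65 at a log2 fold of at least 4, 10.7 at a −log10 p of at least 5 and 12.75 as a plain number per library. At a log2 fold of 3 at any p, chosen after seeing the data, it was 1.02 per 1000 clusters that passed this limit. With touching peaks merged, also chosen then, it was 7.05. Each change of a limit changed the denominator as well, so those values are not on the same scale. Per 1000 clusters the difference of 0.59 became 20 as a plain number. The upper minus lower band differences turned round as plain numbers, to 2.25 enriched peaks and 9 clusters (exact permutation p = 0.722 and 0.611). The share in intron 1, glucagon minus control, was −1.09 percentage points, −5 at a log2 fold of at least 4 and 0.30 at any p. The intronic and before-minus-after-midpoint differences, 2.66 each, had an exact p of 0.125 over 4 units. With clusters of −log10 p of at least 3 alone neither could be tested. The intronic difference then had a value in 2 libraries, −0.14 and 0.39, and the midpoint difference in 1, −1.61.

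Leaving out each library gave 4.57 to 9.17 for enriched peaks per 1000, 0.28 to 0.90 for clusters per 1000, 0.18 to 0.49 for the median log2 fold and −2.17 to 0 for the intron 1 share, glucagon minus control. Upper minus lower band it gave −6.57 to −1.97, −0.66 to −0.03, −0.18 to 0.13 and 0 to 2.17, in the same order. The median log2 fold of the bands changed sign without glucagon lower band replicate 1 (0.04), glucagon upper band replicate 1 (0.04) or control upper band replicate 1 (0.13). The intronic difference ranged from 2.56 to 2.85 and the midpoint difference from 2.59 to 2.88.

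With the replicate number as a block (replicate block), the band difference in enriched peaks per 1000 was −4.27 (exact permutation p = 0.5), that in clusters per 1000 −0.35 (exact p = 0.125, the smallest the block allows) and that between treatments 6.87. The labels do not say that a number marks a shared culture. The difference of replicate 1 from replicate 2, over 6111 genes, correlated at 0.30 between treatments for the lower band and 0.17 for the upper, and between bands at 0.45 with glucagon and 0.23 in controls.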

Other observations

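Ppargc1a, the gene of PGC-1α itself, carried no enriched peak, and its cluster numbers varied widely between libraries. It had 0, 56, 17 and 59 clusters with glucagon (lower 1, lower 2, upper 1, upper 2), against 0, 0, 1 and 1 in the controls. Acacb had 0, 24, 6 and 34 with glucagon, against 0, 0, 2 and 1 in controls. In both genes the smallest library, glucagon lower band replicate 1, had no cluster, like the control lower band libraries. The treatments were therefore not apart in the lower band, and glucagon was higher in the upper band.

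Acsl1, which activates long-chain fatty acids for the step that CPT1A catalyses, had 10, 70, 37 and 71 clusters with glucagon, against 10, 15, 35 and 34 in controls in the same order. Crot, the peroxisomal carnitine octanoyltransferase, had 3, 26, 9 and 14 with glucagon, against 24, 34, 34 and 37 in controls, and so lay lower with glucagon in the upper band and overlapped in the lower. Ppargc1a, Acacb, Acsl1 and Crot were picked after their values were seen, and cluster numbers follow the size of each library. The share of all genes that are so ordered in a single band was not counted, so these orderings have no background.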
